A study of Mus musculus with 15 samples.

Results

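The mitochondrial DNA of the mouse encodes 13 proteins of the respiratory chain, 2 ribosomal RNAs and 22 transfer RNAs. The 10 protein genes described here were taken by name: mt-Nd1, mt-Nd2, mt-Nd4, mt-Nd5, mt-Nd6, mt-Cytb, mt-Co1, mt-Co2, mt-Co3 and mt-Atp6, out of 53700 genes in the count tables. All 10 had counts in every library and passed the filter on low counts in every comparison. They were measured in fully grown mouse oocytes at the germinal vesicle stage, before meiosis resumes. Each library was made from polyadenylated RNA of 15 oocytes. Padi6 encodes a peptidylarginine deiminase, and the product of Tle6 belongs to the subcortical maternal complex. Padi6 heterozygotes (Padi6 het, 3 replicates) and Padi6 knockouts (Padi6 KO, 3) were on FVB/N, and Tle6 heterozygotes (Tle6 het, 2) and Tle6 knockouts (Tle6 KO, 4) on C57BL/6J. Tle6 het replicates 1 and 2 and Tle6 KO replicate 4 were sequenced as technical libraries A and B, which were summed. The controls of both lines therefore carried 1 mutant allele. The labels do not say from which animals or at which age the oocytes came, nor which part of either gene was removed. P-values measure only the spread between these samples, which may in part be technical.

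Mitochondrial genes are transcribed as long precursors from both strands of a circular genome, and the mRNAs are cut out between transfer RNAs and given short poly(A) tails. The encoded proteins form the membrane cores of complexes I, III, IV and V, which are completed by subunits made from nuclear genes. The growing mouse oocyte amasses a very large number of mitochondria, which the embryo inherits. In human cells MT-ND6, the only mRNA of the light strand, is known to lack the poly(A) tail that the others carry.

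The libraries held 30100177 to 74947533 counts in genes. Levels are given as CPM (counts-per-million of gene counts, TMM-scaled, per biological replicate). Padi6 had 18.8 to 24.8 CPM in Padi6 KO against 1595 to 1747 in Padi6 het. Tle6 had 61.1 to 97.1 CPM in Tle6 KO against 430 to 457 in Tle6 het, so its transcript was still counted in the knockout. The 10 oocyte markers summed to 15281 to 18808 CPM in every replicate. The 14 granulosa and cumulus markers summed to 104 to 125 CPM in Padi6 het, 105 to 119 in Padi6 KO, 99.9 to 133 in Tle6 het and 107 to 122 in Tle6 KO. The 7 theca and stroma markers summed to 2.43 to 4.26, 1.07 to 3.62, 4.59 to 5.37 and 1.03 to 2.09 CPM in the same order, and the 5 early embryo markers to 6 to 9.27, 8.3 to 12.9, 1.93 to 5.99 and 3.69 to 4.37. The 7 blood and immune markers summed to 0 to 0.389 CPM, and Hbb-bs and Hba-a2 were at 0 in every library. Some libraries of the Tle6 line stood apart. In Tle6 het replicate 2, libraries A and B differed in their mitochondrial counts and in Tle6, at 600 and 234 CPM without TMM scaling. Tle6 KO replicates 2 and 3 were unlike KO replicates 1 and 4, so values of this line are given for each replicate below.

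Several members have near-identical copies in the nuclear genome, and this bears on what can be counted. The search covered annotated transcripts of GENCODE M21 (GRCm38), not the nuclear genome itself. In the deposited counts, reads with several alignments were set apart (12.09 to 14.51% of the reads of a library). The chromosome 1 pseudogene Gm28661 matched mt-Co2 over 681 bases with 0 mismatches. Gm10925 matched mt-Atp6 over 678 bases and Gm28437 matched mt-Co3 over 783 bases, each with 0 mismatches. Gm28439 matched the first 876 of the 1378 bases of mt-Nd4 with 0 mismatches, and Gm29216 matched bases 1063 to 1545 of mt-Co1 with 1 mismatch. All 5 are annotated on chromosome 1. The chromosome 2 pseudogene Gm13340 matched all 1545 bases of mt-Co1 with 37 mismatches. The closest copy of mt-Cytb, Gm11410 on chromosome 4, differed at 81 of 1142 matched bases. For mt-Nd1 no copy was found at an identity of at least 90% over at least 100 bases. The first 60 bases of mt-Co2 and its copies show why a short read cannot be placed, with capitals for the bases of a copy that differ from the mitochondrial gene.
mt-Co2: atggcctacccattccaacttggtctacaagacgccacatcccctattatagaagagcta
Gm28661: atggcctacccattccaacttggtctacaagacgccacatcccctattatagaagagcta
Gm13341: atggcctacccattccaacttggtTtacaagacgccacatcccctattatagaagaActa
The second set is a stretch of mt-Co1 (bases 1081 to 1140), a member that shares only part of its length with copies.
mt-Co1: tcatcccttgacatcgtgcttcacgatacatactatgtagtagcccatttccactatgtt
Gm29216: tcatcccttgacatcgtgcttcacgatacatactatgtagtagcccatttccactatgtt
Gm13340: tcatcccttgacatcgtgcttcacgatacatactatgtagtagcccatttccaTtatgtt
The third set is the start of mt-Cytb, where a copy differs at 3 of 60 bases and a read can be told apart.
mt-Cytb: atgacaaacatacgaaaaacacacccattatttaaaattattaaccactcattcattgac
Gm11410: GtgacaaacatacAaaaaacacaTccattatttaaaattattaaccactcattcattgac

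Cut into all possible windows of 100 bases, mt-Co2 had 99.5%, mt-Atp6 99.5% and mt-Co3 99.9% of its windows in an annotated nuclear copy without a mismatch. The share was 60.8% for mt-Nd4, 30.8% for mt-Co1 and 3.2% for mt-Nd2. It was 0 for mt-Nd1, mt-Nd5, mt-Nd6 and mt-Cytb. No read length is given in the sources used here. With windows of 50 bases the shares were 100, 99.5 and 99.9% for mt-Co2, mt-Atp6 and mt-Co3, and 51.1% for mt-Co1. The 3 members matched over nearly their full length, mt-Co2, mt-Co3 and mt-Atp6, are called masked below.

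The members also differ in how their reading frames end, which the 3′ ends show. Capitals mark the stop codon, or the single base of it that the gene itself encodes. In mt-Nd4, mt-Co3 and mt-Cytb only the T is encoded, and polyadenylation of the mRNA is known to complete the stop.
mt-Nd1: gcgggagtaccaccatacataTAG
mt-Nd2: ctagccccccaactaattaccTAG
mt-Nd4: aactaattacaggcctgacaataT
mt-Nd5: ttatactcaattaatctcgagTAA
mt-Nd6: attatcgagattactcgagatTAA
mt-Cytb: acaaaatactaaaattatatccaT
mt-Co1: ccaacctatgtaaaagtaaaaTAA
mt-Co2: aactgatctgcttcaataattTAA
mt-Co3: tctccatttattgatgaggatctT
mt-Atp6: ctatatctacatgataatacaTAA
A complete stop was TAA in 5 members and TAG in 2. mt-Nd5 and mt-Nd6 lie on opposite strands and share 14 bases at their 3′ ends. No strand setting is given in the sources used here. Reads from mt-Nd6 and from RNA antisense to it on the heavy strand cannot be told apart. All sequences are from GENCODE M21 (GRCm38).

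The members' levels per length lay far apart. In Padi6 het, mt-Co1 stood at 254 ± 17.1 CPM per kilobase (SD, n = 3) and mt-Nd1 at 241 ± 4.06, with overlapping replicates. mt-Cytb followed at 179 ± 11.1 and mt-Nd4 at 80.6 ± 5.46 CPM per kilobase, each apart from its neighbours in this order. mt-Nd5 (46.3 ± 11.5) and mt-Nd2 (43.1 ± 2.53) overlapped. mt-Nd6, the member on the light strand, had 15.4 ± 2.26 CPM per kilobase. The masked members came last, with mt-Atp6 at 3.11 ± 1.21, mt-Co2 at 2.53 ± 0.497 and mt-Co3 at 2.05 ± 0.481 CPM per kilobase, all overlapping. The first 7 places of this order were taken by the same genes in the other 3 groups, and the masked members were last in all 4. In Tle6 KO the ranges of mt-Nd6 (10.1 ± 1.97, n = 4) and mt-Atp6 (6.79 ± 3.71) overlapped.

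**Figure D1:**
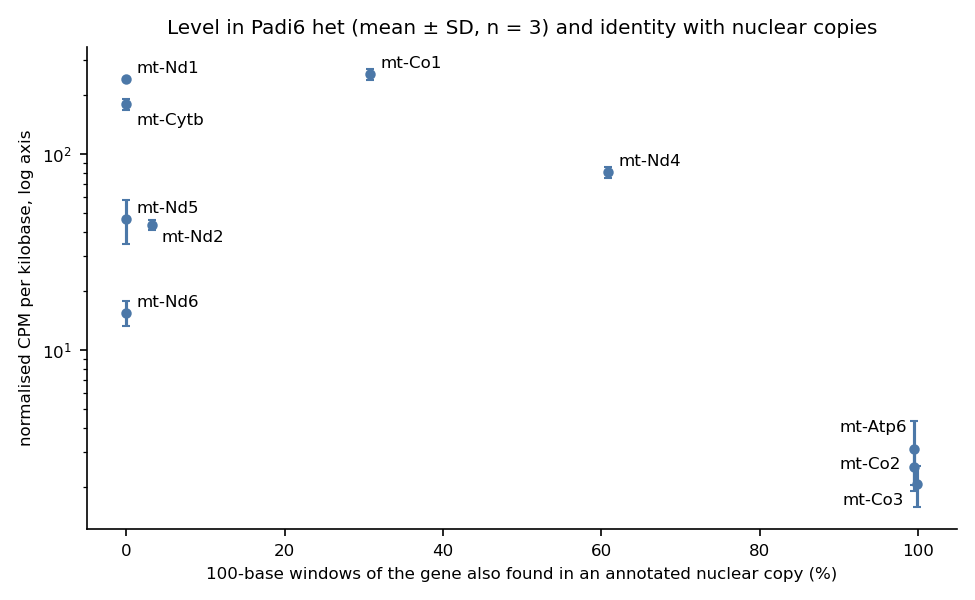
Level of each member in Padi6 het (mean normalised CPM per kilobase, log axis, bars SD, n = 3) against the percentage of its 100-base windows found without a mismatch in an annotated nuclear copy. The masked members mt-Co2, mt-Co3 and mt-Atp6 lie at 99.5 to 99.9% and at 2.05 to 3.11 CPM per kilobase, below the other 7 members.

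The place of mt-Nd4 in this order depended on which length was used. Per kilobase of 100-base windows with no annotated copy, mt-Co1 had 393 ± 26.4 CPM in Padi6 het, mt-Nd1 269 ± 4.53, mt-Nd4 221 ± 15 and mt-Cytb 195 ± 12.2 (n = 3). mt-Nd4 then stood above mt-Cytb in Padi6 het, without overlap, whereas per full length it stood below. With windows of 150 bases their ranges overlapped, and in Padi6 KO they overlapped with windows of 100 bases (163 ± 23 for mt-Nd4 and 165 ± 9.13 for mt-Cytb). mt-Co1 was then above mt-Nd1 without overlap in both Padi6 groups. No such level was computed for the masked members, which keep at most 3 windows.

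The counts left on the masked members were few, and more were counted on their copies. Summed over Padi6 het, mt-Co2 had 289 counts and Gm28661 had 511. mt-Co3 had 268 and Gm28437 604, and mt-Atp6 had 351 and Gm10925 765. In Tle6 KO the copies held 1.23 counts per count of mt-Co2, 1.23 per count of mt-Co3 and 1.69 per count of mt-Atp6, against 1.77, 2.25 and 2.18 in Padi6 het. For mt-Nd4 and mt-Co1, by contrast, the chromosome 1 copies held 0.01 counts per count of the gene in every group. What share of the reads set apart came from the members cannot be read from the tables. Levels of mt-Co2, mt-Co3 and mt-Atp6 are therefore uncertain in every comparison below.

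The other mitochondrial genes framed these values. mt-Rnr2, the 16S ribosomal RNA, had 6807 ± 999 CPM in Padi6 het and 5648 ± 817 in Padi6 KO (n = 3 each), and mt-Rnr1, the 12S RNA, 269 ± 17.6 and 220 ± 13.3. The remaining protein genes were near the limit of counting. mt-Nd3 had 5 to 58 counts in a library, mt-Atp8 1 to 19 and mt-Nd4l 0 to 13, with 5 libraries at 0. A count of 0 allows up to 3 counts, or 0.0997 CPM at the lowest depth, by counting error alone. mt-Nd3 and mt-Nd4l also have chromosome 1 copies over nearly their full length, Gm28438 with 1 mismatch in 345 bases and Gm10222 with 0 in 294. Summed over Padi6 het, Gm28438 had 271 counts where mt-Nd3 had 39, and Gm10222 had 32 where mt-Nd4l had 4. mt-Atp8 had no window of 100 bases in an annotated copy. It stood at 0.242 ± 0.199 CPM per kilobase in Padi6 het (n = 3), below the masked members. The other low protein genes, mt-Co2, mt-Atp6, mt-Co3, mt-Nd3 and mt-Nd4l, all have annotated copies on chromosome 1. Copies that are not annotated were not searched for. mt-Atp8 may have one, so it cannot be taken as a gene without a copy. mt-Atp8, at 204 bases, is the shortest of the 13 protein genes. The 22 transfer RNA genes together had 14 to 236 counts in a library.

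The first comparison asks how the members differ in oocytes without Padi6. All 5 members of complex I, the NADH dehydrogenase, had negative values in Padi6 KO, as did mt-Cytb of complex III and mt-Co1 of complex IV. In edgeR, mt-Nd1 alone passed the test. mt-Nd1 fell, with a log2 fold change of -0.47 ± 0.09 (SE; edgeR quasi-likelihood test, adjusted p = 0.0283 over all genes tested). That is 1 of 10 members called, where 2.41% of the 18228 genes tested were called in either direction and 0.724% were lower. DESeq2 called 5 members, and 1336 of the 18228 genes. When both lines shared 1 spread, edgeR called 0 members. The values of 9 members were negative, against 50.8% of all genes, and the median over the members was -0.43 against -0.01 over all genes. In 6 members every Padi6 KO replicate was below every Padi6 het replicate, where 11.5% of all genes were separated that way. At an unadjusted p under 0.05 stood 6 members, against 18.6% of all genes. Members come from shared precursors and vary together between libraries, so these counts are a description.

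In complex I, mt-Nd1 (ENSMUSG00000064341), whose protein lies where the membrane arm meets the peripheral arm, had 226, 233 and 232 CPM in Padi6 het replicates 1, 2 and 3. In Padi6 KO it had 176, 167 and 158. The het replicates lay close together and all above the knockouts. Its call was lost when any 1 of 5 of the 6 replicates was left out (het replicates 1, 2 and 3, KO replicates 2 and 3), at adjusted p of 0.0515 to 0.132, while the log2 fold change stayed between -0.50 and -0.43.

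mt-Nd2 (ENSMUSG00000064345), a subunit of the proton-pumping membrane arm, had 47.6, 42.4 and 44.3 CPM in Padi6 het and 33.4, 31.7 and 33.8 in Padi6 KO. The groups did not overlap, and the value of -0.44 ± 0.10 missed the threshold (edgeR adjusted p = 0.0518). mt-Nd4 (ENSMUSG00000064363), another subunit of that arm, had 120, 108 and 106 CPM against 95.1, 75.8 and 74.4. KO replicate 1 came nearest to the het values, and the log2 value was -0.44 ± 0.12 (edgeR adjusted p = 0.0774). Without that replicate mt-Nd4 passed, at -0.56 and an adjusted p of 0.0444 in edgeR.

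mt-Nd5 (ENSMUSG00000064367), at the tip of the membrane arm, overlapped between the groups. It had 108, 67.4 and 78 CPM in Padi6 het and 77.4, 62.9 and 63.8 in Padi6 KO, a log2 value of -0.31 ± 0.16 (edgeR adjusted p = 0.336). Het replicate 1 was the high one. mt-Nd6 (ENSMUSG00000064368), the light-strand member, had 6.62, 8.74 and 8.56 CPM against 5.78, 4.78 and 4.04. These groups did not overlap, and its value was the most negative of the members, at -0.71 ± 0.20 (edgeR adjusted p = 0.0909). It rested on 190 to 537 counts in a library of this line.

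In complex III, mt-Cytb (ENSMUSG00000064370), the cytochrome b core, had 218, 203 and 192 CPM in Padi6 het and 182, 163 and 173 in Padi6 KO. The groups were separate, with a log2 value of -0.25 ± 0.09 (edgeR adjusted p = 0.194). In complex IV, mt-Co1 (ENSMUSG00000064351), the catalytic core of cytochrome c oxidase, had 362, 407 and 408 CPM in Padi6 het and 327, 298 and 253 in Padi6 KO. These were separate too, at -0.43 ± 0.11 (edgeR adjusted p = 0.0803).

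The masked members did not separate the groups. mt-Co2 (ENSMUSG00000064354), the subunit that accepts electrons from cytochrome c, had 2.08, 1.72 and 1.4 CPM in Padi6 het and 1.52, 1.31 and 1.02 in Padi6 KO, at -0.43 ± 0.27. mt-Co3 (ENSMUSG00000064358), the third core subunit, had 2.02, 1.51 and 1.29 against 1.84, 1.76 and 1.43, at 0.06 ± 0.26. mt-Atp6 (ENSMUSG00000064357), a subunit of the proton channel of ATP synthase in complex V, had 3.07, 1.72 and 1.56 against 2.06, 2.29 and 1.34, at -0.15 ± 0.32. Their edgeR adjusted p were 0.445, 0.938 and 0.854. Their copies were not called either, at -0.41 ± 0.23 for Gm28661, -0.09 ± 0.20 for Gm28437 and -0.19 ± 0.22 for Gm10925. With the counts of the chromosome 1 copies added to the members, all 10 values were negative and 1 was called.

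The ribosomal RNAs were not called in this comparison. mt-Rnr1 had a log2 value of -0.30 ± 0.10 (edgeR adjusted p = 0.144) and mt-Rnr2 one of -0.27 ± 0.14 (adjusted p = 0.343). Counts of these libraries do not tell fewer mitochondria in an oocyte from less RNA in each mitochondrion.

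Markers of other cells moved between the same groups. Of the 11 granulosa and cumulus markers tested in the Padi6 line, 9 had negative values, 1 was called, and the median was -0.51. The sum of this list rests largely on Nr5a2 (38 to 69.6 CPM over all replicates) and Cyp19a1 (19.9 to 62.3). Has2, a hyaluronan synthase of the expanding cumulus, rose from 1.31 to 3.61 CPM in Padi6 het to 10.7 to 11.4 in Padi6 KO (2.19 ± 0.31, edgeR adjusted p = 0.0109). Cyp11a1, which starts steroid synthesis, had 4.87 to 22.5 CPM against 2.82 to 3.87 (-1.81 ± 0.48, edgeR adjusted p = 0.08). The low markers Amhr2 (-2.77 ± 0.82), Inha (-2.75 ± 0.76) and Fshr (-2.13 ± 0.59) reached at most 2.37 CPM and missed the threshold at edgeR adjusted p of 0.109, 0.0925 and 0.091. Of the early embryo markers, Usp17le rose from 0.0189 to 0.284 CPM in het to 0.966 to 1.17 in KO (2.74 ± 0.59, edgeR adjusted p = 0.0446), a value left uncertain by the similar genes of its family. The part of these cells or genes in the members' values was not tested.

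**Figure D2:**
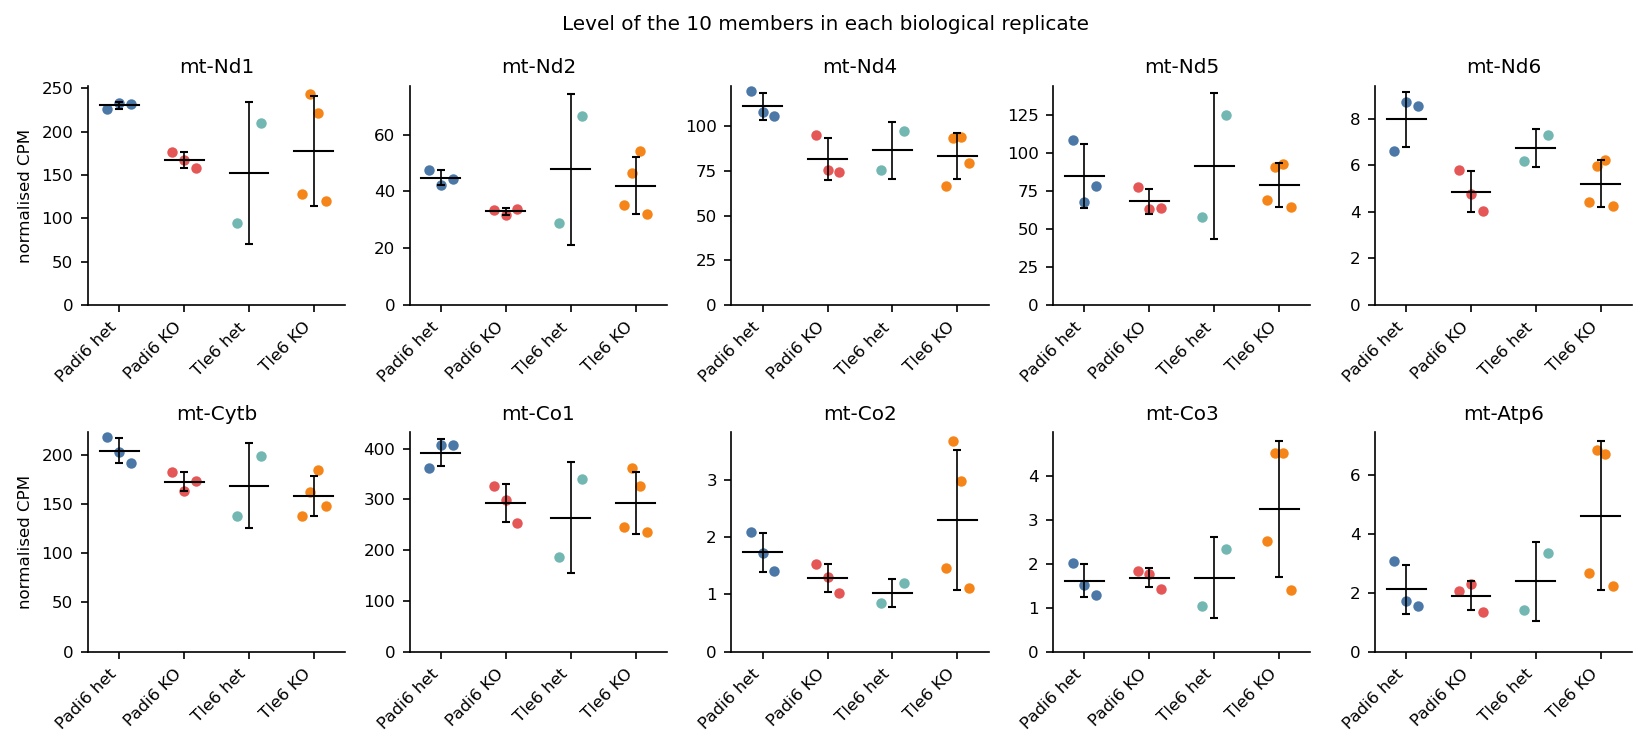
Normalised CPM of each member (vertical axes, each from 0) in every biological replicate (points) of the 4 groups, with the mean (line) and SD (bars). mt-Nd1 had 226 to 233 CPM in Padi6 het and 158 to 176 in Padi6 KO, whereas its Tle6 het replicates lay at 94.1 and 210, with 2 of the 4 Tle6 KO replicates between them.

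The second comparison asks the same in oocytes without Tle6. No member was called, where 1.62% of the 20276 genes tested were. No member reached an unadjusted p under 0.05 in edgeR, where 19% of all genes did. DESeq2 gave 1 member at that level and 0 calls. The values of 5 members were negative and of 5 positive, where 45.9% of all genes were negative. The median was 0.09 against 0.06 over all genes. No member separated the groups, where 29.2% of all genes did so in either direction. The spread was wide in this line. In counts simulated from this comparison over 20276 genes, the test recovered 5% of genes changed 2-fold and 52% of genes changed 4-fold, against 58 and 99% in the Padi6 comparison over 18228 genes.

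In complex I, mt-Nd1 had 94.1 and 210 CPM in Tle6 het replicates 1 and 2, and 128, 244, 221 and 120 in Tle6 KO replicates 1 to 4. The log2 value was 0.27 ± 0.39. Het replicate 1 was the lowest of all, and KO replicates 2 and 3 were above both hets. mt-Nd2 had 28.9 and 66.6 CPM in het and 35.3, 46.5, 54.1 and 32.2 in KO (-0.14 ± 0.34), with every KO replicate between the hets. mt-Nd4 had 75.4 and 97.7 against 66.8, 93.4, 94.1 and 79.6 (-0.01 ± 0.21). mt-Nd5 had 57.5 and 125 against 68.9, 90.3, 92.4 and 64.4 (-0.16 ± 0.31), again all within the hets.

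mt-Nd6 had 6.17 and 7.32 CPM in Tle6 het and 4.42, 5.96, 6.23 and 4.26 in Tle6 KO, at -0.33 ± 0.28. This was the member whose KO values came closest to lying below the het values, with KO replicate 3 above het replicate 1. In complex III, mt-Cytb had 138 and 199 CPM against 138, 162, 185 and 148 (-0.05 ± 0.21). In complex IV, mt-Co1 had 187 and 341 CPM against 246, 362, 326 and 236 (0.19 ± 0.28). The KO values of mt-Cytb lay within the het range, and for mt-Co1 KO replicate 2 lay above both hets. The edgeR adjusted p of these 7 members were 0.56 or more.

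The values of het replicate 2 sum technical libraries that differed. Without TMM scaling, mt-Nd1 had 245 CPM in library A and 141 in library B, mt-Nd4 had 109 and 68.1, and mt-Co1 331 and 265. mt-Nd2 went the other way, at 48 and 60.7 CPM. mt-Rnr1 had 338 and 147 CPM, and mt-Rnr2 2154 and 892. In het replicate 1 the libraries lay closer, at 78.6 and 88.1 CPM for mt-Nd1 and 2000 and 2105 for mt-Rnr2.

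The sum of the theca and stroma markers separated the Tle6 groups, with 4.59 to 5.37 CPM in het and 1.03 to 2.09 in KO. In level, 29.2% of all genes separated these groups in either direction. The sum rests largely on Pdgfra and on Dcn, which had 1.62 to 1.68 CPM in het and 0.187 to 0.813 in KO. Of the 4 markers tested, 3 had negative values, Acta2 had a positive one (0.83 ± 0.74), and 0 were called. Pdgfra came nearest, with 2.18 to 3.23 CPM in Tle6 het and 0.521 to 0.997 in Tle6 KO (-1.89 ± 0.39, edgeR adjusted p = 0.0525). Of the 12 granulosa and cumulus markers tested in this line 9 had positive values and 0 were called, with a median of 0.55. Their part in the members' values was not tested.

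The masked members had the largest positive values in this line, and none passed. mt-Co2 had 0.849 and 1.2 CPM in Tle6 het and 1.45, 3.68, 2.97 and 1.11 in Tle6 KO (1.21 ± 0.54, edgeR adjusted p = 0.271). KO replicates 2 and 3 were high, and KO replicate 4 lay between the hets. mt-Co3 had 1.03 and 2.33 against 2.52, 4.51, 4.52 and 1.41 (0.99 ± 0.55, adjusted p = 0.368 in edgeR). mt-Atp6 had 1.43 and 3.35 against 2.66, 6.88, 6.74 and 2.22 (0.99 ± 0.58, adjusted p = 0.385 in edgeR). The same KO replicates were high in all 3.

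Within the Tle6 line, KO replicates 2 and 3 were also the libraries with the largest shares of reads outside genes (6.70 and 7.29%) and of reads with several alignments (14.51% in both). The masked members made up 1.48 and 1.43% of the members' counts there, against 0.955 and 0.689% in KO replicates 1 and 4. The part of these read classes in the members' values was not tested. Without KO replicates 2 and 3 the median over the members was -0.19 and 7 values were negative. Without het replicate 1 the median was -0.21, and without het replicate 2 it was 0.60, so 1 het replicate decides its sign.

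**Figure D3:**
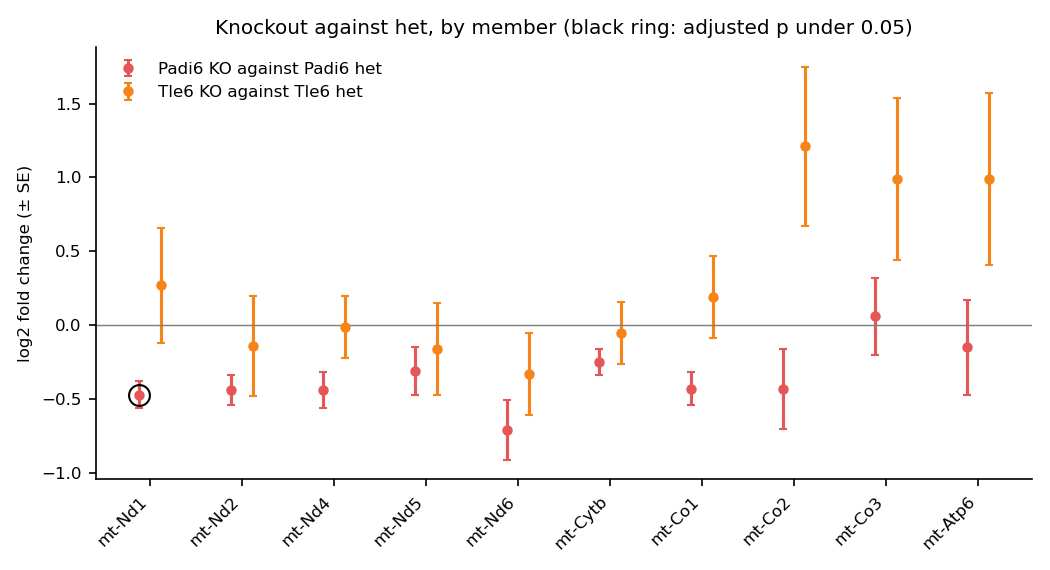
Log2 fold change of each member (points) with its standard error (bars) for Padi6 KO against Padi6 het and Tle6 KO against Tle6 het, from edgeR. The ring marks mt-Nd1 in the Padi6 line, at -0.47, the only value with an adjusted p under 0.05.

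The difference between the lines' knockout effects was tested directly over all 12 replicates. No member was called, where 4.32% of the 21392 genes tested were. All 10 values were negative, that is, lower in the Padi6 than in the Tle6 comparison, against 51.1% of all genes. Their median was -0.48 against -0.02 over all genes. Without Tle6 het replicate 1, 7 values were negative and the median was -0.21. Without het replicate 2 the median was -1.02, so the size rests on the 2 het replicates. The members vary together between libraries, so the count of negative values is a description. At an unadjusted p under 0.05 stood 1 member, mt-Co2 (-1.60 ± 0.62, edgeR adjusted p = 0.161), against 20.7% of all genes. DESeq2 also gave 0 calls and 1 member at that level. For mt-Nd1 the difference was -0.69 ± 0.43 (edgeR adjusted p = 0.385), so its fall in Padi6 KO was not shown to differ from its value in Tle6 KO.

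The 10 members together took 0.115% ± 0.00342 (SD, n = 3) of the gene counts in Padi6 het and 0.0867% ± 0.00908 (n = 3) in Padi6 KO. The Padi6 het replicates had 0.116, 0.118 and 0.112% and the KO replicates 0.0964, 0.085 and 0.0785%. These do not overlap, as the levels of the larger members already showed. The share was 0.0704% ± 0.0263 in Tle6 het (n = 2) and 0.0845% ± 0.0212 in Tle6 KO (n = 4). The Tle6 KO replicates had 0.0653, 0.105, 0.1 and 0.0672%. For Tle6 het replicate 1, libraries A and B had 0.0505 and 0.0536%, and those of KO replicate 4 had 0.0659 and 0.0694%. Those of het replicate 2 had 0.104 and 0.0811%, a wider gap than between the libraries of the other replicates.

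mt-Co1, mt-Nd1 and mt-Cytb made up most of the members' counts in every group. mt-Co1 took 36.3% ± 2.82 of the members' counts in Padi6 het, 35.4% ± 1.98 in Padi6 KO, 32% ± 0.518 in Tle6 het and 34.5% ± 1.26 in Tle6 KO. mt-Nd1 took 21.3, 20.3, 17.9 and 20.5% in the same groups, and mt-Cytb 18.9, 21, 21.2 and 19%. In the Padi6 line the groups did not overlap in the share of mt-Cytb, with 17.9 to 19.9% in het and 20.1 to 22.6% in KO, nor in that of the masked mt-Co3, with 0.12 to 0.185 and 0.187 to 0.218%. mt-Nd6 took 0.605 to 0.813% in Padi6 het and 0.53 to 0.641% in Padi6 KO, and 0.695 to 1.05% in Tle6 het and 0.585 to 0.636% in Tle6 KO. Its share was lower in every Tle6 KO replicate than in either het replicate, while library A of het replicate 2 alone had 0.583%. The shares of mt-Co1 (31.6 and 32.4% in het, 32.8 to 35.5% in KO), mt-Co2 and mt-Atp6 were higher in every Tle6 KO replicate than in either het. In level, 29.2% of all genes separated the Tle6 groups in either direction. In the Padi6 line, 11.5% of all genes were lower in every KO replicate than in every het replicate. The shares also depend on each other, since a larger share of 1 member leaves less for the others. No test was made on these shares.

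The clearest contrast between the lines lay outside the protein genes. The 16S RNA mt-Rnr2 had 5.21 to 7.13 counts per member count in Padi6 het and 6.16 to 7.52 in Padi6 KO, but 2.2 to 3.39 in Tle6 KO. In Tle6 het it had 3.96 and 3.92 in libraries A and B of replicate 1, and 2.08 and 1.1 in those of replicate 2. All Padi6 libraries thus lay above all Tle6 libraries. The 12S RNA mt-Rnr1 had 0.235 to 0.278 counts per member count in the Padi6 line and 0.149 to 0.241 in the Tle6 replicates, where the ranges overlap. By library, library A of Tle6 het replicate 2 had 0.326, above all Padi6 libraries, and library B had 0.182.

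**Figure D4:**
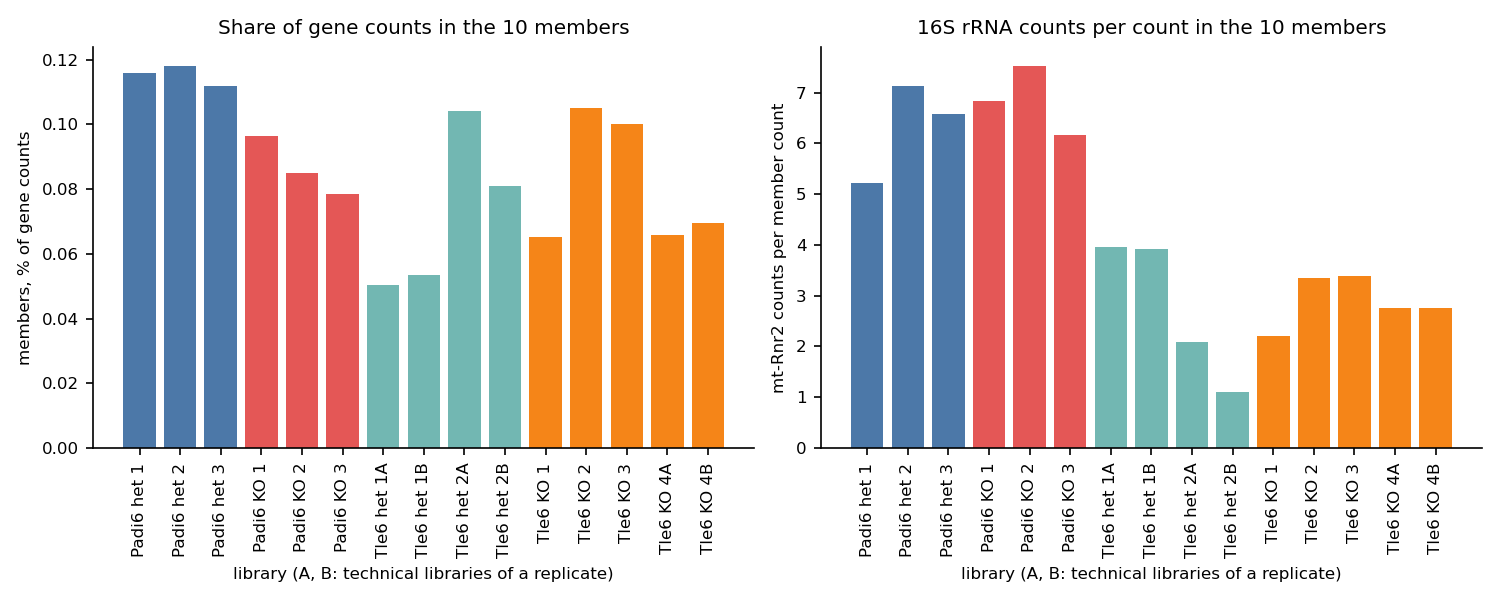
Percentage of gene counts in the 10 members (left) and mt-Rnr2 counts per member count (right) in each of the 15 libraries, coloured by group. The left bars fall from 0.112 to 0.118% in Padi6 het to 0.0785 to 0.0964% in Padi6 KO, and on the right the Padi6 libraries, at 5.21 or more, stand above the Tle6 libraries, at 3.96 or less.

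Between the lines, strain background and line cannot be told apart, and the spike-ins differed: 4009 to 13772 counts in 5 Padi6 libraries, 40 in Padi6 het replicate 3 and 5 to 45 in Tle6 libraries. Comparing Padi6 het with Tle6 het, 0 of 10 members were called in edgeR, where 28.5% of all genes were. In the same test 1 member had an unadjusted p under 0.05, against 40% of all genes. It was mt-Co1 (0.57 ± 0.25, edgeR adjusted p = 0.0973). DESeq2 called none either. mt-Rnr2 was higher in Padi6 het, at 1.80 ± 0.33 (edgeR adjusted p = 0.00139), with 5709, 7661 and 7050 CPM against 2329 and 1582. Comparing Padi6 KO with Tle6 KO, 1 of 10 members was called, where 32.5% of all genes were. That member was mt-Atp6, lower in Padi6 KO by a log2 value of -1.28 ± 0.46 (edgeR adjusted p = 0.0459). It is a masked member. Its adjusted p in edgeR was 0.0624 with the chromosome 1 copies added, 0.108 without Tle6 KO replicate 2 and 0.114 without KO replicate 3. The call was lost in 7 of 12 fits that left out a replicate (Padi6 het 2 or 3, Padi6 KO 1, 2 or 3, Tle6 KO 2 or 3). mt-Rnr2 was higher in Padi6 KO than in Tle6 KO, at 1.15 ± 0.26 (edgeR adjusted p = 0.00386), with 6162, 6077 and 4706 CPM against 1529, 3414, 3366 and 1897.

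Nuclear genes that act on mitochondrial gene expression were examined as lists for replication and nucleoid, transcription, RNA processing and decay, translation factors, regulators of biogenesis, and mitophagy and dynamics. In Padi6 KO, 0 of the 91 measured genes of these 6 lists were called (2.41% of all genes were), with a median of -0.05. The nearest to the threshold was Lonp1, the matrix protease, which had 106, 130 and 116 CPM in Padi6 het and 89.6, 82.4 and 79 in Padi6 KO (-0.49 ± 0.11, edgeR adjusted p = 0.05). Polrmt, the mitochondrial RNA polymerase, had 17.7, 19 and 14.8 CPM against 11.6, 11 and 10.8 (-0.62 ± 0.14, edgeR adjusted p = 0.0526). Neither passed, although the groups did not overlap in either gene. Mfn2, a mitochondrial fusion protein, had -0.55 ± 0.15 (edgeR adjusted p = 0.0908), and Ppargc1a, a coactivator of mitochondrial biogenesis, -0.59 ± 0.39 (adjusted p = 0.459). Positive values included those of Mrm1 (1.08 ± 0.61, edgeR adjusted p = 0.381), Mterf1a (0.46 ± 0.30, adjusted p = 0.452) and Ppargc1b (0.40 ± 0.12, adjusted p = 0.122). Of the 91 values, 62.6% were negative, against 50.8% of all genes.

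In Tle6 KO, 1 of 92 genes of these lists was called (1.09%, against 1.62% of all genes), with a median of -0.08. Esrrg, an orphan nuclear receptor that acts on genes of energy metabolism, fell from 23.5 and 29.4 CPM in Tle6 het to 12.3, 7.45, 9.21 and 12.1 in Tle6 KO (-1.32 ± 0.26, edgeR adjusted p = 0.0441). All 4 KO replicates were below both hets, yet the call was lost without any 1 of the 6 replicates, at adjusted p of 0.0531 to 0.188. Polrmt had 7.35 and 5.5 CPM in Tle6 het and 7.36, 14.6, 9.41 and 10.5 in Tle6 KO (0.75 ± 0.32, edgeR adjusted p = 0.247). Hsd17b10, a subunit of the mitochondrial RNase P, had 0.925 and 1.07 CPM against 2.29, 2.88, 3.73 and 2.52 (1.56 ± 0.36, edgeR adjusted p = 0.07). In the test of the difference between the lines 3 of 92 were called in edgeR (3.26%), a share below the 4.32% of all genes. They were Polrmt (-1.33 ± 0.34, adjusted p = 0.0437), Hsd17b10 (-1.72 ± 0.40, adjusted p = 0.0304) and Esrrg (1.34 ± 0.29, adjusted p = 0.0234). Polrmt and Hsd17b10 were also called between the het groups of the lines, and not between the knockouts.

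Nuclear genes for subunits of complexes I, III, IV and V, which assemble with the members, were not called in either line. The counts were 0 of 77 in the Padi6 and 0 of 78 in the Tle6 comparison, where 2.41 and 1.62% of all genes were called. Their median was -0.01 in the Padi6 comparison, with 53.2% of values negative against 50.8% of all genes. In the Tle6 comparison it was 0.21, with 28.2% negative against 45.9% of all genes. In the Padi6 line the medians were -0.01 for complex I, -0.11 for complex III, 0.11 for complex IV and -0.05 for complex V. The largest complex I value there was that of Ndufa13 (0.69 ± 0.20, edgeR adjusted p = 0.104). In the Tle6 line Uqcrc1, a core protein of complex III, had 1.06 ± 0.38 (edgeR adjusted p = 0.188).

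Within groups the members varied together. After each group's mean was removed, the log2 level of each member correlated with the mean of the other 9 at 0.66 (mt-Nd6) to 0.96 (mt-Nd1) over the 12 replicates. The masked members correlated at 0.92 to 0.96 among themselves, and the other 7 at 0.37 to 0.95. mt-Rnr2 correlated with those 7 at 0.01 to 0.72. Among 7400 nuclear protein-coding genes at a mean of at least 10 CPM, the 5 most like the members' mean over the 12 replicates were Nlrp14 (r = 0.993), Stk31 (0.989), Mis18a (0.989), Gzf1 (0.988) and Topbp1 (0.988). These points share libraries and scaling, the deviations are widest in the Tle6 line, and the genes are the extremes of 7400, so the values describe likeness in these libraries only.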

How the data were processed

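Per the labels' protocols, each library was made from polyadenylated RNA of 15 oocytes with a QIAseq FX Single Cell kit. The authors deposited whole-number counts of reads per gene for 15 libraries, not normalised. The submitters' processing notes name bcl2fastq 2.20.0.422, cutadapt 2.8, STAR 2.7.8a, HTSeq 2.0.2 and mm39. Neither annotation release nor strand setting is given in the sources used here. Groups follow titles and genotypes; bracketed names in titles say WT where these say heterozygote. Each table held 53700 genes, 92 spike-in transcripts and 5 summary lines. Library sizes and tests left out the last 2 kinds. Reads outside genes were 5.39 to 7.29% and ambiguous reads 3.85 to 4.20% of all reads. Names came from GENCODE M21 on GRCm38 (52093 identifiers matched, 1607 not), and since the builds differ, no coordinates are given.

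The two-sided quasi-likelihood test of edgeR 4.0.16 (R 4.3.3) was run with TMM scaling and robust estimation on genes kept by filterByExpr. P-values were adjusted by Benjamini-Hochberg over these genes, and called under 0.05. Each line had its own fit. The difference between lines and the comparisons of lines used all 12 biological replicates. The standard error is the log2 fold change divided by the square root of F. The biological coefficient of variation (common dispersion) came to 0.203 in the Padi6 and 0.361 in the Tle6 line, so spread between replicates, not depth, limits all but the lowest members. The script was tested on simulated data with 200 changed genes per fit. CPM are counts-per-million of gene counts, and intervals or floors cover counting error only.

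Copies were sought with blastn among annotated transcripts, and windows of 50, 100 and 150 bases by identity. Likeness used log2(CPM + 1), centred by group. Alternatives were RLE, total count and spike-in scaling, no filter, DESeq2 1.42.0, limma-voom (limma 3.58.1), a shared spread, a replicate block, mitochondrial genes left out of library sizes, technical libraries A or B alone and each replicate left out. Adding the chromosome 1 copies, and leaving out Tle6 KO replicates 2 and 3 together, were chosen after seeing the data. The members, lists and tests were chosen with earlier results of these data known. Besides the members, the rule named Padi6, Tle6, the other mitochondrial genes, nuclear copies, up to 5 called genes per list and comparison, at most 2 others per list by size of fold change, and 5 genes by likeness.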

Additional observations from a re-analysis of the deposited data

Results flagged for a closer look

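For 3 nuclear genes of the lists, the knockout effects differed between the lines by a direct test (edgeR interaction, adjusted p under 0.05 over all genes). They are 3.26% of the 92 genes tested in these lists, where 4.32% of all genes were called. Polrmt differed by a log2 value of -1.33, with -0.62 in the Padi6 and 0.75 in the Tle6 comparison, and passed in 11 of 26 fits. Without library B of Tle6 het replicate 2 its value was -0.87 (adjusted p = 0.261 in edgeR). Hsd17b10 differed by -1.72, with 1.56 in the Tle6 comparison, and passed in 15 of 26 fits. Both were higher in Padi6 het than in Tle6 het (2 replicates), where 28.5% of all genes were called. Polrmt had 1.42 ± 0.27 (edgeR adjusted p = 0.00173) and Hsd17b10 1.34 ± 0.31 (adjusted p = 0.00655). Between the knockouts neither was called, at 0.09 ± 0.21 (edgeR adjusted p = 0.777) and -0.38 ± 0.25 (adjusted p = 0.272). Esrrg differed by 1.34 and passed in 19 of 26 fits. The targeted genes also differed, with Padi6 at -6.02 and Tle6 at 2.33; Padi6 was lower in Padi6 KO (-6.22) and Tle6 in Tle6 KO (-2.40). Of 22 groups of 4 values searched for a single outlying replicate, 0 held one. Only Tle6 KO has 4 biological replicates, so the smaller groups were not covered. A search for a single value also does not look for 2 that stand apart together, such as Tle6 KO replicates 2 and 3.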

How the results depend on the processing

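Of 764 member values recomputed under the alternatives, 672 kept direction and side of the threshold, 20 lost a call, 19 gained one, 52 uncalled values changed sign and 1 reversed. The 2 comparisons between lines entered this tally with 72 values each, for mt-Nd1, mt-Co1 and mt-Atp6 only. In Padi6 KO against het (1 member called) the count of members was 2 with total count scaling, 0 with spike-in scaling, 5 with no filter, 5 with DESeq2 and 0 when both lines shared 1 spread, and 0 to 2 when a replicate was left out. The median over members stayed at -0.47 to -0.32 outside spike-in scaling. In Padi6 against Tle6 het (0 called) it was 3 with total count scaling, 2 with no filter and 0 to 2 with a replicate left out. In Padi6 against Tle6 KO (1 called) it was 0 with total count scaling, 10 with spike-in scaling, 2 with no filter, 2 with DESeq2 and 0 with limma-voom. It was also 0 with library A only, without library A or library B of Tle6 het 2 and with the chromosome 1 copies added, and 0 to 3 with a replicate left out. Tle6 KO against het and the difference stayed at 0 in all alternatives run. Spike-in scaling moved mt-Co1 between the knockouts from 0.00 ± 0.20 to -7.85, which is the value counted as reversed. It also reversed mt-Rnr2 (-6.66) between the knockouts, and Esrrg (-5.06) and Tle6 (-4.15) in the difference. It moved the median of all genes to -5.64 in the Padi6 and -7.87 in the knockout comparison, since spike-in counts differed between libraries. Total count scaling moved that median to 0.22 in the Tle6 comparison, -0.25 in the difference and 0.34 between hets. With all reads as denominator the members' share was 0.0885% in Padi6 het and 0.0662% in Padi6 KO. Leaving out a replicate gave shares of 0.114 to 0.117% in Padi6 het, 0.0818 to 0.0907% in Padi6 KO, 0.0518 to 0.089% in Tle6 het and 0.0775 to 0.0909% in Tle6 KO.

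Over all genes, 440 were called in the Padi6 comparison, against 1625 with no filter, 1336 with DESeq2, 60 with a shared spread and 0 with spike-in scaling. In the Tle6 comparison 329 were called, against 1447, 1732, 2061 and 1361, and 120 without library B of het replicate 2. The causes were not tested. The main fits did not pair replicates by number, and whether the numbers mark pairs is not settled here. Same-numbered het and KO replicates correlated at 0.36, 0.04 and 0.17 in the Padi6 line and 0.16 and 0.27 in the Tle6 line. In the Padi6 line, 4 of 6 samples correlated best with their own number. With a replicate block, 4 members were called in the Padi6 comparison, 0 in the Tle6 comparison and 0 in the difference, and 859, 57 and 400 of all genes. Few counts limit the precision of mt-Nd3, mt-Nd4l, mt-Atp8 and the transfer RNAs. What made their counts low was not tested.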
